A study of Carica papaya with 7 samples.

Results

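The genes described here are rpoA, rpoB, rpoC1 and rpoC2, which encode the core of the plastid's own RNA polymerase, together with accD, which encodes a subunit of the plastid acetyl-CoA carboxylase. They were chosen by gene symbol from the plastid genes of the array, and each has 1 probe set. They are 5 of 76 plastid genes, which are covered by 77 probe sets out of 22746 for plants in all. The rule uses symbols and no measured values, although it was written with earlier results of these data known.

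Pulp RNA of ripe and unripe papaya (Carica papaya cultivar 'Golden'), free of peel and seeds, was run on Affymetrix ATH1 arrays, which carry probes made for Arabidopsis. The deposited table holds 3 ripe and 3 unripe columns, each for a sample of 12 fruits, which came from 2 harvest years and were picked when the peel began to turn yellow. The values are linear signals that RMA, a method that corrects background and combines the probes of a set, had given. In each stage the signals of replicate 2 were 1.19 times those of replicate 1 for every probe set, within 0.0446%, and those of replicate 3 were the mean of both. The 3 columns of a stage were therefore counted as 1 set of values, and no SD, test or p-value can be given for any difference below. Since the columns of a stage stand at fixed ratios, whether the columns of the stages overlap follows from the size of the single difference and lends it no support. The array hybridized with papaya genomic DNA was not analysed here.

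Plastids are read by polymerases of distinct origin. The plastid-encoded polymerase is a bacterial-type enzyme whose core is made from rpoA (the alpha subunit), rpoB (the beta subunit), rpoC1 (the beta′ subunit) and rpoC2 (the beta″ subunit), and which depends on sigma factors encoded in the nucleus. It reads mainly the genes of photosynthesis. A phage-type polymerase encoded in the nucleus reads the rpoB-rpoC1-rpoC2 operon and accD, while rpoA lies at the end of a cluster of ribosomal protein genes and is not among its main targets. The product of accD, the beta subunit of the carboxyltransferase, takes part in the first step of fatty acid synthesis. During ripening the chloroplasts of fleshy fruit turn into chromoplasts, and in tomato accD is known as a plastid gene whose expression is kept up in that change.

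The 5 genes did not move as a block. On the deposited scale, ripe pulp had lower signals than unripe pulp for rpoB (1.72-fold), rpoC1 (1.43-fold) and rpoC2 (1.22-fold). The signal of rpoA was nearly equal in both stages, and that of accD was higher in ripe pulp by 1.28-fold. All 5 signals lay above the brightest of 27 control probe sets for genes of the bacterium Bacillus subtilis in all 6 columns. In each stage 1 control stood well above the rest. For replicate 3 the brightest was at 7.93 in ripe and 8.24 in unripe pulp, and the next at 4.59 and 4.44. The 27 controls match no plant gene, and their log2 differences between the stages ran from -0.28 to 0.12. A change of scale, described further on, shifts all of these differences together and turns the direction of rpoC1 and rpoC2 when the arrays are scaled to their hybridization spikes for bioB, bioC and bioD (the bio controls).

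The beta subunit gene rpoB (probe set 244999_at) had signals of 19.3, 22.9 and 21.1 in ripe pulp, against 33.0, 39.3 and 36.2 in unripe pulp. The signal was thus lower in ripe pulp. The log2 difference, ripe minus unripe, was -0.78, and 14 of the 22746 plant probe sets had a lower one. Most of these probe sets were dim, as only 2515 were above the bacterial controls in 1 stage or both. A place among the brighter sets was not computed, here or for the like counts of rpoC1 and accD below. Among the plastid probe sets, rpoB ranked 7 from the lowest. Its signal was 2.66 times that of the brightest bacterial control in ripe pulp and 4.39 times in unripe pulp, so that the difference was measured well clear of these controls.

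The next gene of the operon, rpoC1 (244998_at), which encodes the beta′ subunit, had signals of 7.84, 9.33 and 8.59 in ripe pulp. In unripe pulp they were 11.2, 13.3 and 12.3. As for rpoB, the signal was lower in ripe pulp. The log2 difference was -0.51, with 111 probe sets lower, and the sign turned to 0.090 when the arrays were scaled to the bio controls. This is a dim probe set: in ripe pulp its signal was 1.08 times that of the brightest bacterial control, and in unripe pulp 1.49 times.

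The last gene of the operon, rpoC2 (244997_at), encodes the beta″ subunit. Its signals were 68.2, 81.2 and 74.7 in ripe pulp, against 83.5, 99.4 and 91.4 in unripe pulp, which is 9.42 times the brightest bacterial control in ripe pulp and 11.1 times in unripe pulp. The signal was lower in ripe pulp by less than for the other genes of the operon. The log2 difference was -0.29, which is short of the limit of size used here (0.32 on the log2 scale, the fold limit used in the study), and it turned to 0.31 with scaling to the bio controls.

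The alpha subunit gene rpoA (244978_at) had signals of 48.1, 57.2 and 52.7 in ripe pulp and 46.2, 55.0 and 50.6 in unripe pulp. The signals of the stages were nearly equal. The log2 difference was 0.057. Leaving out a single column, which shifts all genes alike by up to 0.064, moved it between -0.0065 and 0.12. Of the 4 polymerase genes it was the single one with no lower signal in ripe pulp.

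For accD (245016_at), signals of 11.4, 13.6 and 12.5 were deposited for ripe pulp, against 8.92, 10.6 and 9.77 for unripe pulp. The signal was thus higher in ripe pulp. The log2 difference was 0.35, and 587 probe sets had a higher one. Among the plastid probe sets it ranked 5 from the highest. Its signal was 1.57 times that of the brightest bacterial control in ripe pulp and 1.18 times in unripe pulp, so that accD, like rpoC1, was read near the level of that control. Without replicate 2 of the ripe stage or replicate 1 of the unripe stage, which shifts all genes alike, the difference came to as little as 0.29 and was no longer past the limit of 0.32.

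**Figure D1:**
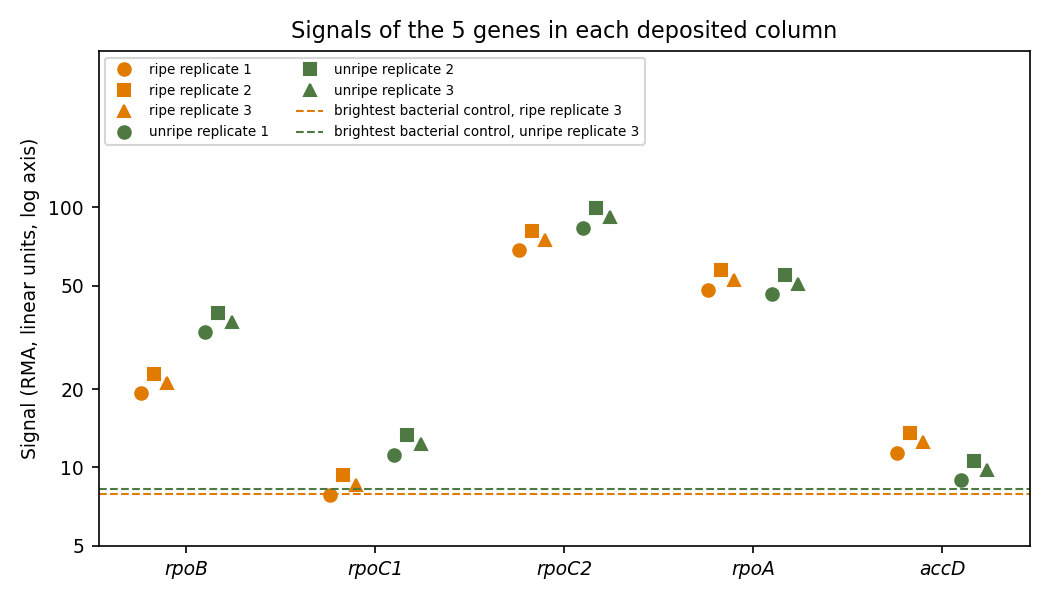
RMA signals (linear units on a log axis) of rpoB, rpoC1, rpoC2, rpoA and accD in the 3 ripe columns (orange, left) and the 3 unripe columns (green, right), with the brightest Bacillus subtilis control of replicate 3 of each stage as a dashed line (each column was read against its own control, 7.25 in ripe replicate 1). The ripe points lie below the unripe ones for rpoB, rpoC1 and rpoC2 (below for rpoB alone when scaled to the bio controls), at nearly the same height for rpoA, and above them for accD; the columns of a stage are proportional and are no independent replicates.

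Past a log2 difference of 0.32 in either direction, 1 of the 5 genes was higher in ripe pulp (accD) and 2 were lower (rpoB and rpoC1). Over all 22746 plant probe sets, 3.57% were higher and 3.53% lower by this measure. The shares were larger among brighter probe sets: of the 2515 above the bacterial controls in 1 stage or both, 9.3% were higher and 9.66% lower. The split depends on the scale: of all plant probe sets, 812 were higher and 804 lower as deposited, 1359 and 487 with scaling to the cre controls, and 21525 and 8 with scaling to the bio controls, which puts the median of all plant probe sets at 0.60.

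The plastid genes as a whole make the closer background. Of the 72 other plastid probe sets, 5.56% were higher in ripe pulp past the limit (4 probe sets) and 45.8% were lower (33 probe sets). With scaling to the bio controls these counts were 38 and 5, and of the 5 genes 2 were then higher and 0 lower. As deposited, the 2 lower genes out of 5 are thus near the share among all 72 other plastid probe sets. The 5 genes were all above the bacterial controls in all columns. Of the 43 other plastid probe sets for which this holds, 26 were lower and 1 higher past the limit (5 and 16 with scaling to the bio controls). The median log2 difference was -0.29 over the 5 genes, -0.26 over the other plastid probe sets and -0.0047 over all plant probe sets. The median of the 43 other plastid probe sets that were above the bacterial controls in all columns was -0.47, while that of the 23 plastid probe sets below these controls in both stages was -0.10. The direction of the plastid genes depends on the scale: 58 of the 72 other plastid probe sets were negative as deposited, and 17 with scaling to the bio controls. Where the signals are read as lower, fewer plastids or plastid genomes per cell and less RNA from each of them cannot be told apart in bulk pulp.

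The spread among the 5 genes does not depend on how a whole array is scaled, since a constant factor cancels between probe sets of the same arrays. The log2 difference of rpoB was lower than that of accD by 1.13, a ratio of 2.19-fold, and this was the widest gap among the 10 pairs. It was lower than that of rpoA, its partner subunit, by 0.84 (1.78-fold). Within the operon the gap between rpoB and rpoC2 was 0.49 (1.40-fold), and rpoC1 lay between them, 0.26 above rpoB and 0.22 below rpoC2. The gap between rpoA and accD was 0.30 (1.23-fold), with accD the higher. For comparison, the log2 differences of the 27 bacterial controls spanned 0.40 from the lowest to the highest. The gaps of rpoC1 to its neighbours in the operon and that between rpoA and accD are smaller than this span. Those of rpoB to rpoC2, rpoA and accD are larger. All but 1 of these controls were dim, at or below 4.59 in ripe and 4.44 in unripe pulp for replicate 3. Their span therefore does not gauge the spread of brighter probe sets, and no gap was tested.

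The gaps were narrower when 16 was added to every signal, a step that damps dim probe sets. The log2 difference of rpoB then lay 0.64 below that of accD and 0.54 below that of rpoA, and rpoB minus rpoC2 was -0.25. The order of rpoC1 and rpoC2 was turned round, at -0.20 and -0.24. With quantile normalization the 5 log2 differences were -0.70 for rpoB, -0.51 for rpoC1, -0.16 for rpoC2, 0.18 for rpoA and 0.35 for accD, in the same order as on the deposited scale.

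Where the line of no difference lies depends on the scale. The bio controls (14 probe sets) were dimmer on the ripe arrays, and scaling to them raised every log2 difference by 0.60, so that on this scale the typical plant probe set stands at 0.60 and rpoB, rpoC1 and rpoC2 remain below that level. On that scale rpoB stayed lower in ripe pulp, at -0.17, while rpoC1 (0.090), rpoC2 (0.31), rpoA (0.66) and accD (0.96) were all higher. Scaling to the 4 cre control probe sets raised the differences by 0.053 and left all 5 directions as they were. Setting the other plastid genes as the zero line, an alternative chosen after seeing the data, gave -0.52 for rpoB, -0.25 for rpoC1, -0.029 for rpoC2, 0.3197 for rpoA and 0.62 for accD, and of the values above 0 only that of accD was past the limit of 0.3219. With the zero line at the 43 other plastid probe sets above the bacterial controls in all columns, also chosen after seeing the data, the values were -0.31 for rpoB, -0.045 for rpoC1, 0.18 for rpoC2, 0.53 for rpoA and 0.82 for accD. On this line rpoB was short of the limit and rpoA and accD were past it.

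**Figure D2:**
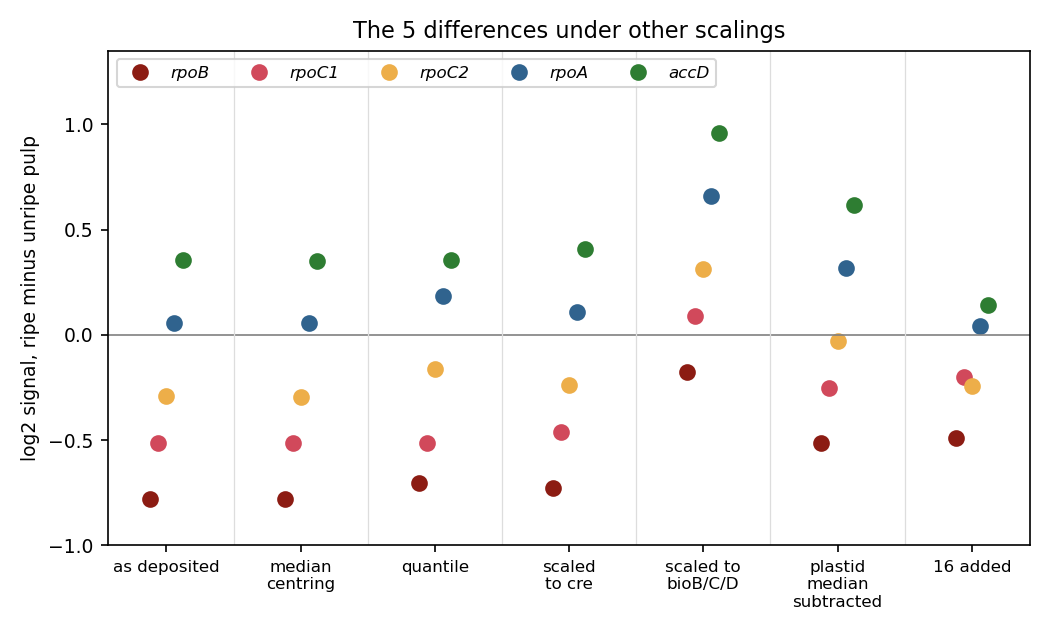
Log2 signal, ripe minus unripe pulp, of the 5 genes as deposited and under 6 other settings; each point is 1 gene. The order rpoB, rpoC1, rpoC2, rpoA, accD holds from low to high except with 16 added, where rpoC1 and rpoC2 change places, and scaling to the bio controls puts rpoC1 and rpoC2 above 0. Apart from quantile normalization and 16 added, the settings shift all genes alike, so that the order could not change there.

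The neighbours of each gene on the plastid genome were read next, in the gene order of the papaya plastid genome in RefSeq, where all 5 genes and the other plastid genes of the array are listed. Downstream of rpoC2 lie rps2, for a protein of the small ribosomal subunit, and the ATP synthase genes atpI, atpH, atpF and atpA. All 5 had a lower signal in ripe pulp, 3 of them past the limit, with a median log2 difference of -0.40. Scaled to the bio controls all 5 were higher, and with quantile normalization rps2 (0.58) and atpH (0.28) were. Of the 5, only 2 (rps2 and atpH) were above the bacterial controls in all columns. atpA was above them in unripe pulp only, and atpI and atpF in no column. rps2 had signals of 473, 563 and 518 in ripe pulp and 624, 743 and 683 in unripe pulp (log2 difference -0.40). Its log2 difference lay between those of rpoC1 and rpoC2. atpH, for the ring subunit of the ATP synthase, was at -0.41.

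On the other side of rpoB, and read from other promoters, lie petN, for a small subunit of the cytochrome b6f complex, and psbM, for a small subunit of photosystem II. These 2 genes, added after their values were seen, were at log2 differences of -0.76 and -0.40 (-0.15 and 0.20 with scaling to the bio controls). The signal of petN was 33.3, 39.6 and 36.4 in ripe pulp, against 56.3, 67.0 and 61.6 in unripe pulp, which is a difference close to that of rpoB.

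Around accD, all 5 listed neighbours (rbcL, psaI, ycf4, cemA and petA) had a positive log2 difference, with a median of 0.14. They stayed positive with quantile normalization and with scaling to the cre or the bio controls, but psaI, at 0.0019, was negative without replicate 2 of the ripe stage or replicate 1 of the unripe stage. Past the limit there was 1, rbcL, the gene of the large subunit of Rubisco, with 9.93, 11.8 and 10.9 in ripe pulp and 7.45, 8.87 and 8.16 in unripe pulp (log2 difference 0.41). It was above the bacterial controls in ripe pulp only. ycf4, a photosystem I assembly factor, was above them in all columns, with 143, 170 and 156 in ripe pulp against 130, 154 and 142 in unripe pulp, a log2 difference of 0.14. Those of cemA, for an envelope membrane protein, and petA, for cytochrome f, were 0.21 and 0.11. cemA was above the bacterial controls in ripe pulp only, and petA was not above them.

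Just outside that stretch the values were of the other sign. atpB and atpE, which precede rbcL and encode the beta and epsilon subunits of the ATP synthase, were at -0.95 and -1.04. psbJ, of photosystem II, which follows petA, was at -0.87. These 3 genes stayed lower in ripe pulp with scaling to the bio controls (-0.26 to -0.44) and with quantile normalization (-0.38 to -0.82). They too were picked after their values were seen. The list of neighbours was itself written with earlier results known, so the ends of this stretch were not set independently of the values. accD and its neighbours stand, with positive differences, between genes whose signals were among the lowest in ripe relative to unripe pulp. Of the 5 neighbours, only 2 were above the bacterial controls in all columns, psaI at 0.0019 and ycf4 at 0.14.

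Upstream of rpoA, 7 of 10 listed genes of the ribosomal protein cluster had a probe set with a single symbol, and the others were not analysed here. Of the 7, 6 had a lower signal in ripe pulp, 4 past the limit, at a median log2 difference of -0.50 (3 lower with scaling to the bio controls). However, only 3 of the 7 were above the bacterial controls in all columns. The gene at the median, rpl22, is 1 of the 4 past the limit and was above these controls in no column. Its mean signal was 3.38 in ripe and 4.79 in unripe pulp. rpl36, for a protein of the large ribosomal subunit, had 26.8, 31.9 and 29.3 in ripe pulp and 44.7, 53.2 and 49.0 in unripe pulp, a log2 difference of -0.74. That of rpl14, from the same cluster, was -0.62. Both stayed lower with scaling to the bio controls, at -0.14 for rpl36 and -0.019 for rpl14, a scale on which rpoA was higher. On its other side rpoA is followed by petD and petB, genes of the cytochrome b6f complex, which were both at -0.15 (0.45 and 0.46 on that scale). Of these, petB was above the bacterial controls in all columns and petD in none.

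**Figure D3:**
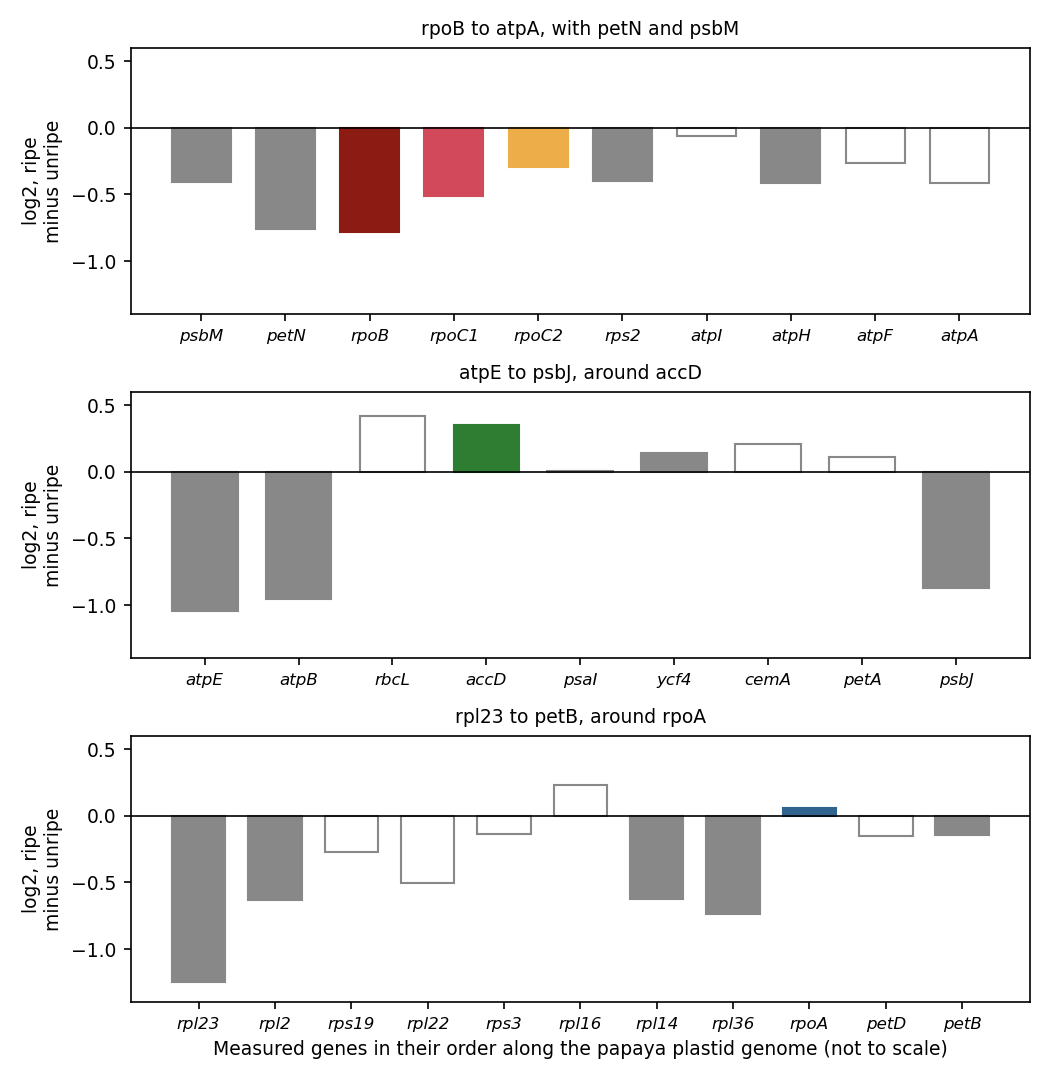
Log2 signal, ripe minus unripe pulp, of the plastid genes around rpoB, rpoC1 and rpoC2 (top), accD (middle) and rpoA (bottom), in their order along the papaya plastid genome, with only measured genes drawn and not to scale; filled bars were above the bacterial controls in all 6 columns, open bars were not. Bars run down for the rpoB stretch and up from rbcL to petA, with psaI near 0. rpoA stands near 0 while rpl36 is at -0.74. Scaling to the bio controls would move every bar up by 0.60, and quantile normalization turns rps2 and atpH upward.

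The plastid genes that are known targets of each polymerase were counted from lists written with earlier results of these data in view. The plastid-encoded polymerase is known to read psaA, psaB, psbA, psbB, psbC, psbD, psbE, rbcL and petB. All 9 were measured: 7 had a lower signal in ripe pulp and 2 a higher one, with 5 lower and 2 higher past the limit and a median log2 difference of -0.47 (5 of 9 higher with scaling to the bio controls). psbD, for the D2 reaction centre protein of photosystem II, had 434, 517 and 476 in ripe pulp and 1011, 1203 and 1107 in unripe pulp, a log2 difference of -1.22. psbC, for the CP43 antenna protein, was at -0.68. psbB, for the CP47 antenna protein, went the other way at 0.68, but its signal was above the bacterial controls in ripe pulp only, at 10.03, 11.94 and 10.99, against 6.26, 7.45 and 6.85 in unripe pulp.

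Genes known to be read by both polymerases (atpB, atpI, clpP, ndhB, ndhF, rps16 and rpl33) were all 7 measured. Of these, 5 had a lower signal in ripe pulp and 2 a higher one, with 2 lower and 1 higher past the limit, at a median log2 difference of -0.081 (6 of 7 higher with scaling to the bio controls). Only 3 of the 7 were above the bacterial controls in all columns, against 7 of 9 on the list before. Of the 2 lower past the limit, rpl33 (-0.37) was above them in no column. The lists thus differ in brightness as well, and the contrast of their medians was not tested. clpP, the gene of the plastid's own protease subunit, was at -0.081. ndhB, a subunit of the NADH dehydrogenase-like complex with a copy in each inverted repeat, was at 1.44, with 37.0, 44.0 and 40.5 in ripe pulp and 13.7, 16.2 and 15.0 in unripe pulp. The genes that the nuclear-encoded polymerase mainly reads did not share a direction here: rpoB and accD lay near opposite ends of the plastid genes, at rank 7 from the lowest and rank 5 from the highest.

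By function, the other plastid genes fell into groups whose medians were all below 0 save rbcL (0.41). The median log2 difference was -0.50 over 9 probe sets of the large ribosomal subunit and -0.17 over 11 of the small one. It was -0.49 over 11 of the NADH dehydrogenase-like complex, -0.42 over 6 of the ATP synthase, -0.40 over 15 of photosystem II, -0.37 over 5 of photosystem I and -0.15 over 6 of the cytochrome b6f complex. With scaling to the bio controls each of these medians is 0.60 higher and positive, and with quantile normalization that of the small ribosomal subunit is 0.018. The value of rpoB lay below all of them, that of rpoC1 just below that of the large ribosomal subunit, and those of rpoA and accD above all but rbcL.

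**Figure D4:**
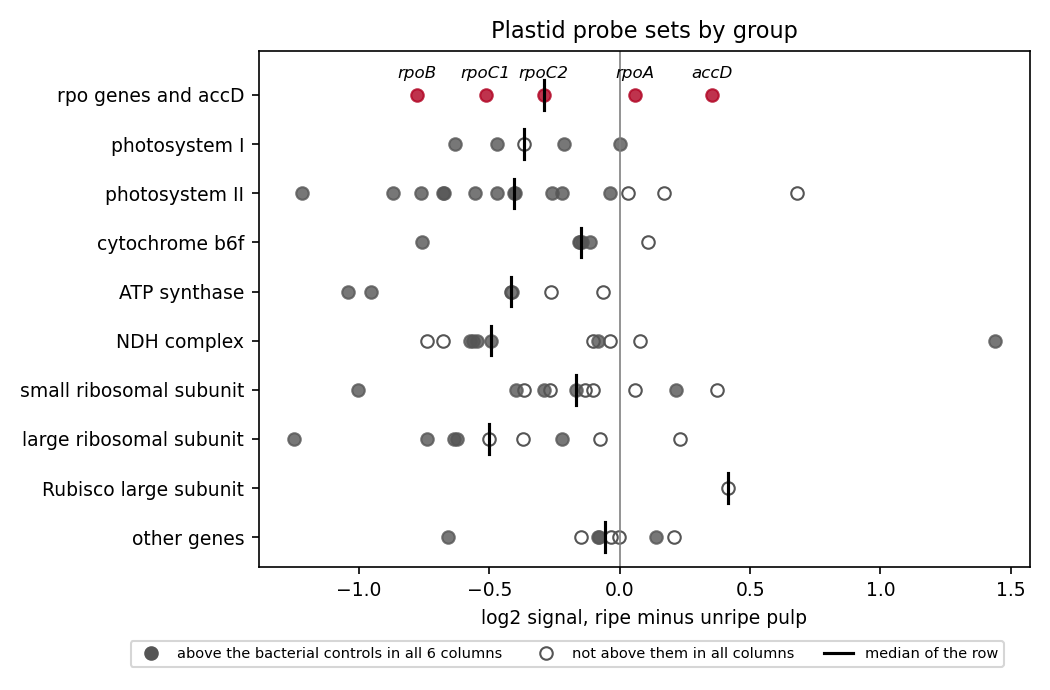
Log2 signal, ripe minus unripe pulp, of all 77 plastid probe sets by group; each point is 1 probe set, filled where it was above the bacterial controls in all 6 columns, and the black tick is the median of the row. The 5 genes spread from -0.78 (rpoB) to 0.35 (accD) around a median of -0.29, within the spread of the other groups; scaling to the bio controls would move every point to the right by 0.60.

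For each of the 5 genes, the plastid probe set with the nearest log2 difference was looked up among the 43 that were above the bacterial controls in all columns. With 1 set of values per stage this likeness rests on a single difference. For rpoB it was psbE, for a cytochrome b559 subunit of photosystem II (-0.76, with 39.1, 46.6 and 42.8 in ripe pulp and 66.3, 78.9 and 72.6 in unripe pulp). For rpoC1 it was ndhD (-0.49), and for rpoC2 it was rps12 (-0.29, though a second, dim probe set of rps12 was at 0.060). For rpoA it was psaI (0.0019). For accD it was rps4, for a small ribosomal subunit protein, at 0.21, with 14.1, 16.8 and 15.4 in ripe pulp against 12.2, 14.5 and 13.3 in unripe pulp. rbcL, at 0.41, is nearer to accD but was not among these candidates, since it was above the controls in ripe pulp only.

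Nuclear genes were looked up by Arabidopsis locus code among the single gene symbols. A gene given there under another name was missed by this search, so a gene not found may still have a probe set. Of 33 listed nuclear genes (polymerases, sigma factors, polymerase-associated proteins, editing factors, partners of accD and the cytosolic carboxylase), 2 were found. RPOTmp (AT5G15700), the phage-type polymerase of mitochondria and plastids in Arabidopsis, had 5.93, 7.05 and 6.49 in ripe pulp and 8.004, 9.525 and 8.765 in unripe pulp. Its log2 difference was -0.43 (0.17 with scaling to the bio controls), and only the unripe signals were above the bacterial controls. YS1 (AT3G22690), a factor for the editing of rpoB transcripts in Arabidopsis, was below the controls in both stages, at 3.33, 3.96 and 3.65 in ripe pulp against 3.75, 4.47 and 4.11 in unripe pulp. None of the 6 sigma factors and none of the 4 partners of accD in the plastid carboxylase were found in this way.

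Of 9 listed markers of seed and peel, the tissues that were removed, 1 was found by locus code, with the same limit of the search. This oleosin gene (AT3G01570), for a protein of seed oil bodies, had 4.53, 5.40 and 4.97 in ripe pulp and 5.64, 6.71 and 6.17 in unripe pulp, below the brightest bacterial control in all columns. The other listed markers were not analysed here, and the part of such tissues in the differences was not tested.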

How the data were processed

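Linear RMA intensities of ATH1 arrays with ripe and unripe papaya pulp were deposited. The methods say that the authors obtained .CEL files from MAS, ran RMA inside GeneSpring and masked probes by means of papaya genomic DNA. All 22810 probe sets of the array have a value, so that the table is not limited to sets kept by a mask. The mask of the paper dropped probe sets left with no more than a single probe pair and so gave fewer sets. The deposited values thus do not match that mask as described. The sources used here do not give whether single probes were masked in another way or which primer began cDNA synthesis. The genomic DNA array was not analysed, so a planned description of its signals was left out.

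Intensities under 1 were set to 1, and the log2 difference is the mean over ripe columns minus the mean over unripe columns. Counts cover 22746 probe sets, without 64 controls. GEO's platform annotation gives 13523 of them a single gene symbol, 493 several and 8730 none, and names were taken from single symbols alone. As the columns of a stage were proportional, neither limma nor the one-way analysis of variance of the methods was run, and the fold limit (0.32 on the log2 scale) is a limit of size. Arrays give no depth; their number, with effectively 1 per stage, limits precision.

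The symbol rule for members and the gene lists were written with earlier results of these data known. All 5 genes are named; of each list, genes past the limit or above the bacterial controls could be named, up to 5 by size of difference, and further neighbours and listed genes were named after their values were seen. Gene order came from RefSeq (ASM5485532v1). The procedure was tested on simulated data. The tools were matplotlib 3.10.9, scipy 1.17.1, pandas 2.3.3, numpy 2.4.6 and Python 3.11.15.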

Additional observations from a re-analysis of the deposited data

How the results depend on the processing

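The widest gap, rpoB below accD, kept its direction under every alternative run. Only quantile normalization (-1.06) and 16 added to signals (-0.64) could change this gap. The other alternatives shift all genes alike, so that its value was fixed in advance. The alternatives were quantile normalization, median centring, centring on other plastid probe sets, the cre or the bio controls (bioB, bioC and bioD) as the scale, ratios of linear means, 16 added to signals, and each column left out in turn. Scaling to the bio controls turned rpoC1 to a log2 difference of 0.090 and the median of the 5 genes to 0.31, with 2 genes higher and 0 lower past the limit of 0.32. With 16 added, 0 genes were higher and 1 (rpoB) was lower, and the log2 difference of rpoB minus that of another gene was -0.64 for accD, -0.54 for rpoA and -0.25 for rpoC2. Quantile normalization gave a median of -0.16. Subtracting the median difference of the other plastid probe sets, chosen after seeing the data, gave a median of -0.029 and 1 lower gene; with only the 43 bright ones, likewise chosen after seeing the data, the median was 0.18, with 2 genes higher and 0 lower. Leaving out single columns gave 0 to 1 higher genes (0 without replicate 2 of ripe or replicate 1 of unripe pulp, when accD drops out), 2 to 3 lower genes (3 without either of these, when rpoC2 joins) and medians from -0.36 to -0.23; the columns of a stage differ by 1.19 times, which cancels in the gaps between genes, so that these did not move, with rpoB minus accD at -1.13, rpoB minus rpoA at -0.84 and rpoB minus rpoC2 at -0.49. The share of probe sets past the limit was 7.11% of all plant probe sets, 19.0% of those brighter than the bacterial controls, 10.95% of those above the median signal and 52.0% of the plastid probe sets.

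No paired analysis was possible because the columns of a stage are proportional. A filter by genomic DNA signal was not run. With 1 set of values per stage, no difference has a replicate check. rpoC1 and accD were read near the level of the brightest bacterial control.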
